A study of Mus musculus with 27 samples.

Results

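The 8 genes described here, Abca1, Abcg1, Lrp1, Clu, Soat1, Nceh1, Pltp and Srebf2, handle cholesterol and the lipoproteins that carry it between brain cells. They were chosen by name from the 31053 genes listed in each count table, and all 8 were found. They were followed across single nuclei from the hippocampi of 27 mice that were tau-free or carried the P301S human tau transgene, on a Cgas+/+, Cgas+/- or Cgas-/- background.

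The brain makes its own cholesterol. Astrocytes synthesize much of it and load it, through ABC transporters, onto lipoprotein particles built around apolipoproteins, and neurons, microglia and oligodendrocytes take the particles up through receptors of the LDL receptor family. Inside a cell, surplus cholesterol is joined to fatty acids and stored as cholesteryl ester in lipid droplets, which hydrolases break down again. A sterol-regulated transcription factor adjusts uptake and synthesis to supply.

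The design crossed PS19 mice, in which human P301S tau is expressed from the mouse prion protein promoter, with mice lacking Cgas, the gene of a cytosolic DNA sensor. The groups were Cgas+/+ (5 mice, 3 male and 2 female), Cgas+/- (2 males), Cgas-/- (2 males), and P301S Cgas+/+, P301S Cgas+/- and P301S Cgas-/- (6 mice each, 3 of each sex). The study describes tau-free mice and their P301S littermates bred from this cross, and the litter of each sequenced mouse is not given. The labels give no age, and the study describes adults that had been through behavioral testing. Each library was 1 mouse.

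Each library held between 46091490 and 79484316 unique molecular identifiers (UMIs, 1 per captured transcript), and 204852 of 241938 barcodes were kept as nuclei, 5840 to 12572 per library. Any 2 libraries shared 8 to 48 barcodes (median 21). Nuclei were assigned to marker-defined classes, called "-like" here, after clustering that left out the 8 genes and 83 further pathway genes. The microglia-like class had 11398 nuclei, the astrocyte-like class 26829, the oligodendrocyte-like class 45768, the excitatory neuron-like class 74976 and the inhibitory neuron-like class 14470. All 10 markers of microglia, of astrocytes and of oligodendrocytes were highest in their own class, as were 7 of 8 excitatory and 8 of 10 inhibitory markers. Dentate granule-, CA1- and CA3-like nuclei were present, beside 19853 cortical excitatory-like and 1921 striatal projection neuron-like nuclei. Libraries differed widely in these, with 15 to 1999 cortical excitatory-like and 17 to 1496 dentate granule-like nuclei each. Of the striatal projection neuron-like nuclei, 74.4% came from 1 library. The part of this mixture in the excitatory neuron-like values below was not tested, apart from a fit with hippocampal-like nuclei only. The library P301S Cgas+/+ replicate 3 stood apart: it had the lowest median depth and gave 60.9% of an unnamed cluster of shallow nuclei, which entered no class. The Cgas transcript, listed as Mb21d1, was not lower in the libraries labelled Cgas-/-: in microglia-like nuclei it stood at 37.7 ± 11.3 CPM (UMIs of the gene per 1000000 UMIs of the class in a library; SD, n = 6) in P301S Cgas+/+ and 51.4 ± 7.02 CPM (n = 6) in P301S Cgas-/-. Whether the counted 3' tags lie in the deleted part is not given in the sources used here, so this checks neither the labels nor the deletion.

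Promoter windows from 250 bases before to 50 bases after the gene's start were in the RefSeq table (assembly GRCm38.p6) for 6 of the 8 genes, all but Abcg1 and Clu. RefSeq's starts of Soat1, Nceh1, Pltp and Srebf2 differ from those of the annotation whose gene coordinates are given with each gene below. The windows of Abca1, Soat1 and Nceh1 are printed because these genes were called together in microglia-like nuclei (below), each 5′ to 3′ on the gene's strand with the palindromic E-box CACGTG in capitals. They lie at chr4:53159846-53160145 (minus strand), chr1:156474279-156474578 (minus strand) and chr3:27182754-27183053 (plus strand).
Abca1: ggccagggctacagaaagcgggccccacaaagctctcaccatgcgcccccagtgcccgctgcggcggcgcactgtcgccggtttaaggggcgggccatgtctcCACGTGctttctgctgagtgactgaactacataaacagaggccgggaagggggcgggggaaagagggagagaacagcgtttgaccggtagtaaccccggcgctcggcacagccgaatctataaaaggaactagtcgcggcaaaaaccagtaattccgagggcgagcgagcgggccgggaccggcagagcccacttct
Soat1: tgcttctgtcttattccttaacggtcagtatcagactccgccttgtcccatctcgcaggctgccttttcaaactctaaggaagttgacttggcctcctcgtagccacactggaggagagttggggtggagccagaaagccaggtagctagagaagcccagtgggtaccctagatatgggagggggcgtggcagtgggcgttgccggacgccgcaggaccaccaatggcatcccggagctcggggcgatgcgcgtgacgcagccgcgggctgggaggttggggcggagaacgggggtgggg
Nceh1: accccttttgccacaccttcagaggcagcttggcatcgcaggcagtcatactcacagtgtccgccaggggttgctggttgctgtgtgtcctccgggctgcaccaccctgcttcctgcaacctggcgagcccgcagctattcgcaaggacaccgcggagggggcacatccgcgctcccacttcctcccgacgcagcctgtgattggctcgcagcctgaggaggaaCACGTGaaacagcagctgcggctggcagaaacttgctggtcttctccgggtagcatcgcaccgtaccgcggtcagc
The E-box occurred once each in the Abca1 and Nceh1 windows and in none of the other 4, and 7.15% of all 32851 windows in the table held it. Neither the sterol regulatory element written as TCACNCCAC nor an LXR element, searched as 2 AGGTCA sites spaced by 4 bases with at most 1 mismatch in each, was found on either strand of the 6 windows. Of all windows, 1.24% held the former and 1.75% the latter. Sites with more mismatches were not searched, so the lack of a match says nothing of whether LXR or Srebf2 acts at these promoters.

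Levels in CPM were computed from UMIs summed over the nuclei of 1 class in 1 library, for libraries with at least 20 nuclei of the class. Droplets also capture free RNA from other cells: the 10 astrocyte markers summed to a median of 712 CPM in microglia-like nuclei of the 9 tau-free mice, against 30605 CPM in astrocyte-like nuclei. Its part in the low levels below was not tested. Levels of different genes were not compared with each other.

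Lrp1 (chr10:127538161-127621148, minus strand) encodes an endocytic receptor for apolipoprotein E particles and many other ligands. It was highest in microglia-like nuclei, at 553 ± 91.6 CPM (SD, n = 27), followed by fibroblast-like nuclei at 394 ± 101 CPM (n = 14) and oligodendrocyte precursor (OPC)-like nuclei at 370 ± 46.9 CPM (n = 27). Microglia-like nuclei were above fibroblast-like nuclei in 13 of 14 libraries, while fibroblast- and OPC-like nuclei were not ordered, with 7 of 14 libraries either way. Astrocyte-like nuclei reached 239 CPM, and oligodendrocyte-like nuclei 15 CPM in both tau-free and P301S mice. An antisense gene, Gm16217, overlaps Lrp1.

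Clu (chr14:65968483-65981547, plus strand) encodes clusterin, the apolipoprotein J of brain lipoproteins. Its level was 354 ± 112 CPM (n = 27) in astrocyte-like nuclei and 133 ± 45.7 CPM (n = 15) in ependymal-like nuclei, and the astrocyte level was higher in all 15 libraries that had both. Choroid plexus-like nuclei followed at 63.3 ± 20.6 CPM (n = 10).

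Pltp (chr2:164839518-164857711, minus strand) encodes phospholipid transfer protein, which remodels lipoproteins. It was highest in classes of the brain's barriers and ventricles, with 910 ± 332 CPM (n = 21) in endothelial-like, 336 ± 74.8 CPM (n = 15) in ependymal-like and 122 ± 21.7 CPM (n = 10) in choroid plexus-like nuclei, an order kept in every library that could be compared (13 of 13 and 9 of 9). Among the 5 tested classes its highest mean was 13.3 CPM, in astrocyte-like nuclei. The 3′ part of Pltp overlaps Ctsa on the opposite strand, and whether counting used strand is not given in the sources used here.

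Abca1 (chr4:53030787-53159895, minus strand) moves cholesterol and phospholipid onto lipid-poor apolipoproteins. Microglia-like nuclei had 568 ± 205 CPM (n = 27) and were above fibroblast-like nuclei (338 ± 117 CPM, n = 14) in 14 of 14 libraries. Fibroblast- and astrocyte-like nuclei (331 ± 159 CPM, n = 27) did not differ beyond their spread, with 7 of 14 libraries each way.

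Abcg1 (chr17:31057675-31117988, plus strand) passes cholesterol to particles that already hold lipid. Oligodendrocyte-like nuclei, at 163 ± 31.5 CPM (n = 27), were above microglia-like nuclei, at 146 ± 60.9 CPM (n = 27), in 17 of 27 mice, so these neighbors did not separate. OPC-like nuclei followed at 96.5 ± 16.9 CPM, below microglia-like nuclei in 22 of 27 mice. In astrocyte-like nuclei, where Abca1 was abundant, the tau-free median of Abcg1 was 2.66 CPM.

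Soat1 (chr1:156424525-156474331, minus strand), which esterifies cholesterol for storage, and Nceh1 (chr3:27182965-27284608, plus strand), a hydrolase of cholesteryl ester, had different distributions. Soat1 was highest in astrocyte-like nuclei, at 177 ± 13.4 CPM (n = 27), above microglia-like nuclei at 101 ± 49.4 CPM in 24 of 27 mice. Nceh1 was highest in ependymal-like nuclei, with 96.3 ± 32.6 CPM (n = 15), followed by 82.6 ± 69.6 CPM (n = 27) in microglia-like and 82.1 ± 11 CPM (n = 27) in inhibitory neuron-like nuclei, none separated from its neighbor (9 of 15 and 10 of 27 libraries higher), and low in astrocyte-like nuclei, at 18.3 ± 3.75 CPM (n = 27). The SD of Nceh1 in microglia-like nuclei was close to its mean. Its place there rests on pooling tau-free and P301S mice, with medians of 29.7 and 85.2 CPM. In tau-free mice alone, the median was 85.3 CPM in inhibitory neuron-like and 64.3 CPM in excitatory neuron-like nuclei. It was 56.1 CPM in oligodendrocyte-like nuclei, and of the tested classes only astrocyte-like nuclei, at 17.9 CPM, were below microglia-like nuclei.

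Srebf2 (chr15:82147181-82205379, plus strand) encodes the transcription factor that switches on cholesterol synthesis and uptake genes when sterols are scarce, and holds the microRNA gene Mir33. Astrocyte-like nuclei had 193 ± 27.2 CPM (n = 27), above oligodendrocyte-like nuclei (157 ± 21.7 CPM, n = 27) in 24 of 27 mice. Pericyte or smooth muscle-like nuclei followed at 142 ± 46.1 CPM (n = 22) and were not separated from oligodendrocyte-like nuclei, which were higher in 14 of 22 libraries.

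**Figure D1:**
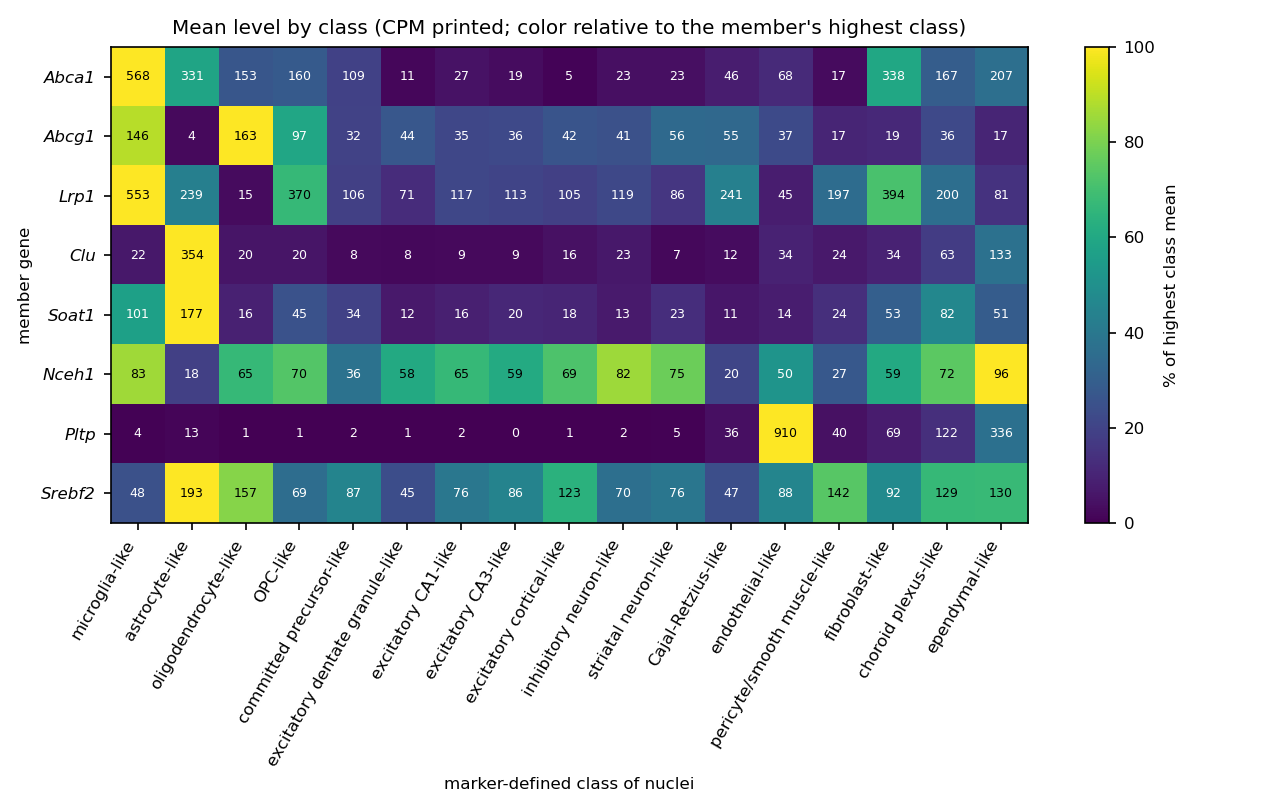
Mean CPM of the 8 genes (rows) in the marker-defined classes of nuclei (columns), printed in each cell over all libraries with at least 20 nuclei of the class, with color giving the percentage of the gene's highest class mean. Clu and Pltp each have a single dominant class (astrocyte-like, 354 CPM, and endothelial-like, 910 CPM), while Nceh1 has no single dominant class and is low in astrocyte-like nuclei (18.3 CPM). The Nceh1 mean of microglia-like nuclei pools tau-free mice (median 29.7 CPM) and P301S mice (median 85.2 CPM).

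To ask how tau expression alters these genes, P301S Cgas+/+ mice were compared with Cgas+/+ mice (the tau contrast), and all 18 P301S mice with all 9 tau-free mice (the pooled tau contrast, the mean of the 3 P301S groups less the mean of the 3 tau-free groups). Groups weigh equally in the pooled contrast, so the tau-free Cgas+/- and Cgas-/- groups, of 2 males each, each count as much as the 5 Cgas+/+ mice. The study excluded these small groups from its later analyses. In microglia-like nuclei of P301S mice, the efflux gene Abca1 and both genes of the ester cycle, Soat1 and Nceh1, were higher: of the 7 genes with enough counts, these 3 passed the test in the pooled contrast, where 11.5% of all 9690 genes tested did. In the tau contrast 0 of the 7 passed, where 0% of 9317 genes did, although 15.6% of genes, and Abca1, Soat1 and Nceh1 among the 7, had an unadjusted p under 0.05. The contrasts share mice and are not independent.

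For Abca1, the 5 Cgas+/+ mice had 341, 395, 382, 416 and 398 CPM, the 2 Cgas+/- mice 445 and 411 CPM and the 2 Cgas-/- mice 446 and 284 CPM. P301S Cgas+/+ mice had 420 to 766 CPM (median 644), P301S Cgas+/- mice 441 to 1057 CPM (median 636) and P301S Cgas-/- mice 459 to 990 CPM (median 647). The groups overlapped only at their edge, since 15 of 18 P301S mice were above the highest tau-free mouse, and the 3 below were P301S Cgas+/+ replicates 2 and 4 and P301S Cgas+/- replicate 6. The pooled log2 fold change was 0.79 ± 0.178 (SE; edgeR quasi-likelihood test, adjusted p = 0.00726), and that of the tau contrast 0.67 ± 0.230 (edgeR adjusted p = 0.157).

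Soat1 ranged from 44.7 to 69.1 CPM in the 9 tau-free mice (median 63.1) and from 54.2 to 206 CPM in the 18 P301S mice (median 120). Again 15 of 18 P301S mice exceeded every tau-free mouse, and the others, P301S Cgas+/+ replicates 2 and 4 and P301S Cgas+/- replicate 5, lay within the tau-free range. The log2 fold change was 1.07 ± 0.262 in the pooled contrast (edgeR adjusted p = 0.0115) and 1.16 ± 0.362 in the tau contrast (edgeR adjusted p = 0.137).

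Nceh1 ran from 17.6 to 37.3 CPM in tau-free mice (median 29.7) and from 23.7 to 267 CPM in P301S mice (median 85.2). P301S mice reached above the highest tau-free mouse in 14 of 18 cases, with P301S Cgas-/- replicate 5 at 267 CPM and P301S Cgas+/+ replicate 3 at 215 CPM at the top and P301S Cgas+/+ replicate 2 at 23.7 CPM at the bottom. The log2 fold change was 2.0 ± 0.492 in the pooled contrast (edgeR adjusted p = 0.0131) and 2.08 ± 0.679 in the tau contrast (edgeR adjusted p = 0.143).

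**Figure D2:**
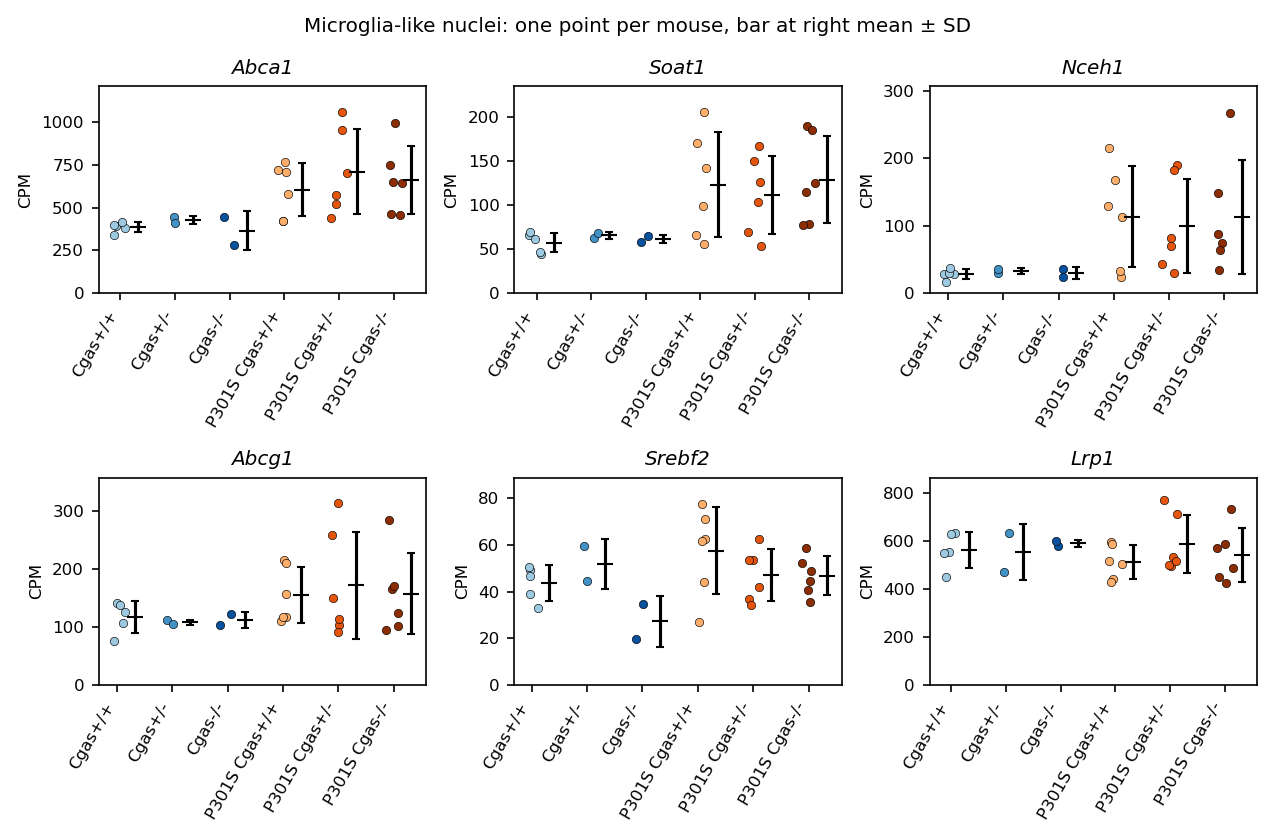
CPM of Abca1, Soat1, Nceh1, Abcg1, Srebf2 and Lrp1 in microglia-like nuclei by genotype group, with 1 point per mouse and the group mean ± SD beside it. For Abca1 and Soat1, 15 of 18 P301S mice lie above the highest tau-free mouse, while the Lrp1 groups overlap throughout.

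The other genes did not pass the test in microglia-like nuclei. Abcg1 ran from 75.3 to 141 CPM in tau-free and from 92.2 to 314 CPM in P301S mice, with 9 of 18 P301S mice above the tau-free range and a pooled log2 fold change of 0.57 ± 0.261 (edgeR adjusted p = 0.168). Srebf2, at 19.6 to 59.4 CPM against 27.1 to 77.8 CPM, gave 0.36 ± 0.174 (edgeR adjusted p = 0.188). Lrp1 spanned 448 to 634 CPM against 423 to 768 CPM and gave -0.04 ± 0.112 (edgeR adjusted p = 0.893). Clu, at or below 44.1 CPM in every mouse, gave -0.25 ± 0.227, and Pltp had too few counts to be tested.

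The calls of the pooled contrast were sensitive to single control mice. Leaving out Cgas+/- replicate 2, which leaves 1 mouse in that group assumed to vary like the others, took Soat1 to an edgeR adjusted p of 0.0664 and Nceh1 to 0.0735 with log2 fold changes of 1.11 and 2.08, and leaving out Cgas-/- replicate 1 took Nceh1 to 0.0598 with a log2 fold change of 1.92 ± 0.580. Without P301S Cgas+/+ replicate 2 Srebf2 was called as well (0.45 ± 0.155, edgeR adjusted p = 0.0498), giving 4 genes, and in the tau contrast Soat1 and Nceh1 were called (edgeR adjusted p = 0.0289 and 0.0420). The share of all genes called rose too without this mouse, to 14.3% (pooled) and 4.25% (tau), and it fell to 2.5% without Cgas+/- replicate 2 and 4.86% without Cgas-/- replicate 1. Without P301S Cgas+/+ replicate 3, the library that stood apart, the same 3 genes were called in the pooled contrast, and the tau contrast gave 0.57 for Abca1, 0.94 for Soat1 and 1.78 for Nceh1.

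The file headers name either of 2 software versions, which followed sex and group: all 12 libraries of version 3.0.2 were male (6 tau-free, 6 P301S) and the 15 of version 3.1.0 were 3 tau-free and 12 P301S mice. Within version 3.0.2 the log2 fold change between P301S and tau-free mice was 0.69 for Abca1, 1.07 for Soat1 and 1.63 for Nceh1, all 3 called by edgeR (adjusted p = 0.00429, 0.00826 and 0.0218), in a set where 654 of 7636 genes (8.56%) were. Within version 3.1.0 it was 0.76, 1.07 and 2.14, none called by edgeR (adjusted p = 0.177, 0.218 and 0.195), in a set where 0 of 9551 genes were. The male mean of Abca1 was 389 CPM in 7 tau-free and 715 CPM in 9 P301S mice, and the female mean 399 CPM in 2 and 598 CPM in 9. A test of a difference in the P301S effect between the sexes called 1 gene of 12999 in oligodendrocyte-like nuclei and 0 of all genes in the other 4 classes (edgeR interaction term), and none of the 8. It thus says nothing particular of them. Pltp had too few counts for it in microglia- and oligodendrocyte-like nuclei.

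Whether Cgas dosage altered these genes under tau was asked by comparing P301S Cgas-/- and P301S Cgas+/- with P301S Cgas+/+ mice (6 against 6 each). None of the tested genes passed in any of the 5 classes. In microglia-like nuclei, where 0% of 9317 genes passed in either comparison (2.63% and 2.2% at an unadjusted p under 0.05), the log2 difference of P301S Cgas-/- mice was 0.09 ± 0.213 for Abca1, -0.00 ± 0.294 for Soat1, -0.11 ± 0.517 for Nceh1, 0.06 ± 0.142 for Lrp1 and -0.31 ± 0.193 for Srebf2. That of P301S Cgas+/- mice was 0.21 ± 0.212 for Abca1, -0.15 ± 0.303 for Soat1 and -0.19 ± 0.512 for Nceh1. The standard errors were widest for Nceh1. In astrocyte-like nuclei (0% of 13177 genes in either comparison) P301S Cgas-/- mice gave -0.07 ± 0.296 for Abca1, 0.24 ± 0.187 for Clu and 0.18 ± 0.129 for Srebf2. In oligodendrocyte-like nuclei (0% of 12574 genes in either) Abcg1 gave 0.02 ± 0.143 and Srebf2 0.08 ± 0.0955. In inhibitory neuron-like nuclei (0% in either) Nceh1 gave 0.08 ± 0.113 and Clu 0.09 ± 0.144. In excitatory neuron-like nuclei the background was 0.00593% for the deletion and 0% for the heterozygous comparison.

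Outside microglia-like nuclei no gene of the 8 passed in the tau contrasts. Of all genes tested, 0.00759% (tau) and 2.71% (pooled) were called in astrocyte-like nuclei and 0.00795% and 0.00769% in oligodendrocyte-like nuclei. The excitatory class had 0.0237% and 2.59%, and the inhibitory class 0.0075% and 0.0216%. The genes described here contributed 0 of these calls.

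Abca1 in astrocyte-like nuclei came closest. The 9 tau-free mice lay between 193 and 248 CPM (median 222) and the 18 P301S mice between 207 and 760 CPM (median 337), 14 of them above every tau-free mouse. The pooled log2 fold change was 0.85 ± 0.235 (edgeR adjusted p = 0.0531). It passed without each of 5 mice in turn (P301S Cgas+/+ replicates 2 and 6, P301S Cgas+/- replicates 1 and 5 and P301S Cgas-/- replicate 3, edgeR adjusted p = 0.0297 to 0.0477), by DESeq2, with P301S as a single factor and within version 3.0.2. It was farther from passing within version 3.1.0 (0.73, edgeR adjusted p = 0.443), with the header version as a covariate (0.69, edgeR adjusted p = 0.145) and without each of the 4 tau-free Cgas+/- or Cgas-/- mice in turn (edgeR adjusted p = 0.142 to 0.180). In oligodendrocyte-like nuclei Abca1 ran from 98.7 to 129 CPM in tau-free and from 94.4 to 323 CPM in P301S mice, with 12 of 18 above the tau-free range and a pooled log2 fold change of 0.60 ± 0.233 (edgeR adjusted p = 0.251).

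The lipoprotein genes of astrocyte-like nuclei overlapped between groups. Clu ranged from 186 to 563 CPM in tau-free and from 197 to 629 CPM in P301S mice (0.31 ± 0.145, edgeR adjusted p = 0.275), with Cgas+/+ replicate 4, a female, at 563 CPM above all but 1 P301S mouse. The male mean of Clu was 250 CPM in 7 tau-free and 344 CPM in 9 P301S mice. The female mean went the other way, with 465 CPM in 2 tau-free and 422 CPM in 9 P301S mice. Pltp gave 0.54 ± 0.226 (edgeR adjusted p = 0.200) at levels of 4.18 to 26.3 CPM. Soat1, at 160 to 187 CPM against 161 to 218 CPM, gave -0.00 ± 0.0672. Srebf2 gave -0.21 ± 0.0962 (edgeR adjusted p = 0.259), from a tau-free median of 211 CPM to a P301S median of 190 CPM.

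In oligodendrocyte-like nuclei Abcg1 gave a pooled log2 fold change of 0.31 ± 0.115 (edgeR adjusted p = 0.228), and 5 of 18 P301S mice were above the highest tau-free mouse. In excitatory neuron-like nuclei the 8 genes gave -0.07 (Pltp) to 0.30 (Abca1), and Abcg1 was nearest to passing (0.26 ± 0.0921, edgeR adjusted p = 0.114), between 27.9 and 43.6 CPM in tau-free and 34.4 and 55.1 CPM in P301S mice, 9 of 18 of which were above the tau-free range. In inhibitory neuron-like nuclei Abca1 gave 0.60 ± 0.204 (edgeR adjusted p = 0.728), between 12.2 and 25.0 CPM and between 12.2 and 44.2 CPM with 7 of 18 above, and the other 7 genes gave -0.03 (Srebf2) to 0.28 (Pltp), with Nceh1 at 0.06 ± 0.0969. In endothelial-like nuclei, which were not among the tested classes, Pltp was 718 ± 130 CPM (n = 3) in Cgas+/+, 771 ± 32 CPM (n = 2) in Cgas+/- and 975 ± 98.7 CPM (n = 2) in Cgas-/- mice. It was 807 ± 242 CPM (n = 4) in P301S Cgas+/+, 1141 ± 441 CPM (n = 5) in P301S Cgas+/- and 908 ± 431 CPM (n = 5) in P301S Cgas-/- mice, and the tau-free and P301S mice overlapped.

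**Figure D3:**
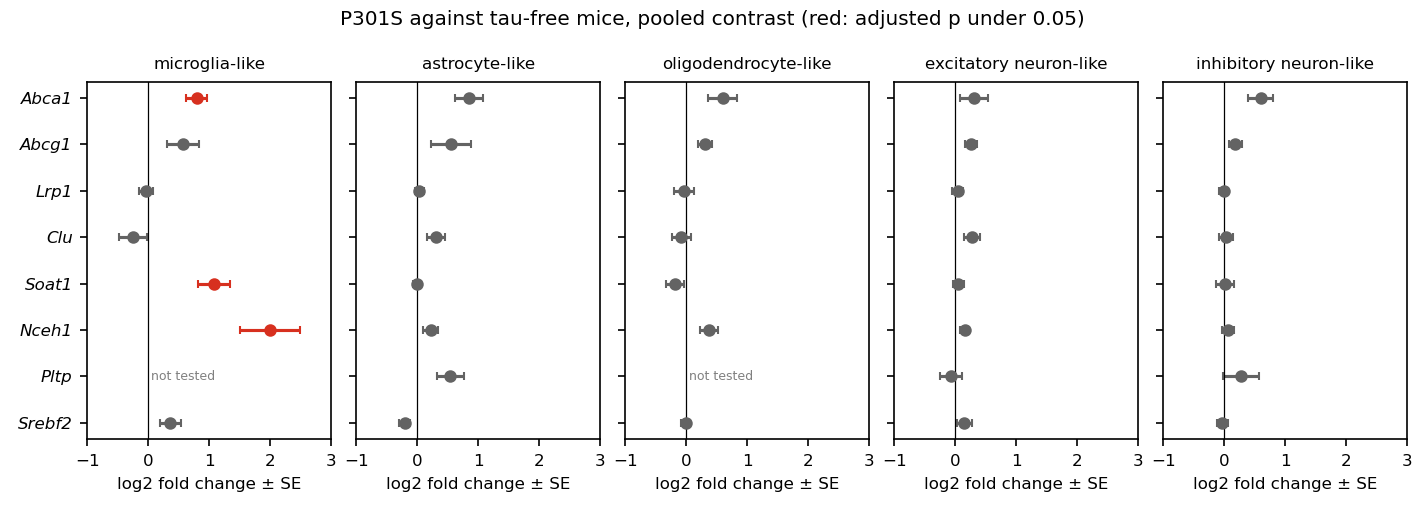
Log2 fold change ± SE between the 18 P301S and the 9 tau-free mice in the pooled tau contrast (x axis) for each of the 8 genes (y axis), in 1 panel per tested class. Red points passed an adjusted p of 0.05 and are Abca1, Soat1 and Nceh1 in microglia-like nuclei (0.79, 1.07 and 2.0).

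The microglia-like class was made of 2 clusters, and their shares moved with tau. The cluster led by Fgr, Cd74, Cd84 and Myo1f (cluster 12) made up 2.63% to 8.24% of the class in tau-free mice (median 4.32%) and 5.74% to 93.7% in P301S mice (median 54.9%, highest in P301S Cgas+/+ replicate 3), and the rest was the cluster led by Selplg, Siglech, Slco2b1 and Csf1r (cluster 9). Over P301S mice, the 13 listed genes of disease-associated microglia (Lilrb4a had no UMI) summed to 968 to 3581 CPM in cluster 12 and 390 to 912 CPM in cluster 9, and the 8 homeostatic genes to 2538 to 4993 CPM and 4703 to 6764 CPM. In the whole class the disease-associated list ranged from 316 to 553 CPM in tau-free and 427 to 3466 CPM in P301S mice, the 10 interferon-responsive genes from 416 to 631 and 430 to 2310 CPM, the 10 oligodendrocyte markers from 272 to 561 and 310 to 930 CPM, and the 7 macrophage markers from 14.8 to 375 and 0 to 119 CPM. The part of these shares and lists in the class values was not tested.

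Compared within mice, the ester-cycle and efflux genes were higher in cluster 12. Among the 19 mice with at least 20 nuclei in both clusters, 17 of them P301S, Nceh1 was higher in cluster 12 in all 19, with 145 ± 55.6 CPM (SD) against 38.5 ± 32.1 CPM. Soat1 was higher in 18 mice (141 ± 45.7 against 78.7 ± 30.6 CPM) and Abca1 in 18 (720 ± 183 against 514 ± 130 CPM). Srebf2 was higher in 17 (68.9 ± 32.1 against 36.7 ± 14.4 CPM) and Abcg1 in 16 (175 ± 68.8 against 116 ± 52.7 CPM), whereas Lrp1 was higher in 11 and Clu in 6. Apoe, the main apolipoprotein of brain particles, was higher in 19 of 19 (1318 against 171 CPM). The share of all genes that were higher in cluster 12 in as many mice is not known here. The counts therefore show nothing particular to these genes.

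A difference between groups in Abca1 and Soat1 was also seen within cluster 9 alone, where it was not tested. There, Abca1 was 378 ± 49.7 CPM in 9 tau-free and 530 ± 117 CPM in 18 P301S mice, with 14 of 18 above the highest tau-free mouse, and Soat1 was 54.8 ± 7.26 and 80.2 ± 30.9 CPM, with 13 of 18 above. The ratios of P301S to tau-free means were smaller than in the whole class, at 1.40 against 1.68 for Abca1 and 1.47 against 2.01 for Soat1. Nceh1 was 26.2 ± 5.31 and 39.8 ± 32.8 CPM with 9 of 18 above, a ratio of 1.52 against 3.63 in the whole class. Abcg1 was 115 CPM in both. Within cluster 12, where only 2 tau-free mice had enough nuclei, Soat1 was 160 CPM in those 2 and 139 CPM in 17 P301S mice, Nceh1 137 and 146 CPM, Abca1 514 and 744 CPM and Abcg1 98.3 and 184 CPM. Lrp1 was 378 and 559 CPM there, with all 17 P301S mice above the 2 tau-free mice. Srebf2 had means of 119 and 63.0 CPM. The 2 tau-free mice stood at 55.2 and 182 CPM and the P301S mice at 37.4 to 101 CPM (median 55.2). The higher tau-free mean of Srebf2 thus rests on 1 library. These 2 tau-free mice, a Cgas+/+ and a Cgas-/- mouse, had only 36 and 20 nuclei in cluster 12, so no direction there is read from them.

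Astrocyte- and oligodendrocyte-like nuclei also held a cluster that was larger in P301S mice. Astrocyte-like cluster 8, led by Gfap, Myoc, Osmr and Thbs4, made up 4.88% to 18.4% of its class in tau-free mice (median 12.2%) and 9.37% to 69.2% in P301S mice (median 30.4%). Against cluster 1 of the same 27 mice, Pltp was higher in cluster 8 in all 27 (27.4 ± 8.30 against 8.65 ± 3.52 CPM) and Clu in 26 (478 ± 136 against 322 ± 106 CPM), while Abca1 was higher in 19 (375 against 285 CPM). Lrp1 and Soat1 went the other way, being lower in 23 and 22 mice. How many of all genes differ between these clusters in as many mice is not known here. Within cluster 1, Pltp was 8.97 ± 2.70 CPM in tau-free and 8.49 ± 3.93 CPM in P301S mice, and Abca1 was 219 ± 18.6 and 318 ± 94.9 CPM.

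Oligodendrocyte-like cluster 20, chosen after its share was seen, made up 0.0879% to 1.08% of its class in tau-free and 0.623% to 31.9% in P301S mice. In the 15 P301S mice with enough nuclei, Nceh1 was higher there than in cluster 0 in 14 (102 ± 22.6 against 72.7 ± 20.2 CPM), and Abcg1 was higher in only 1 (110 ± 52.7 against 151 ± 27.2 CPM). Here too the share of all genes with such counts is not known.

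**Figure D4:**
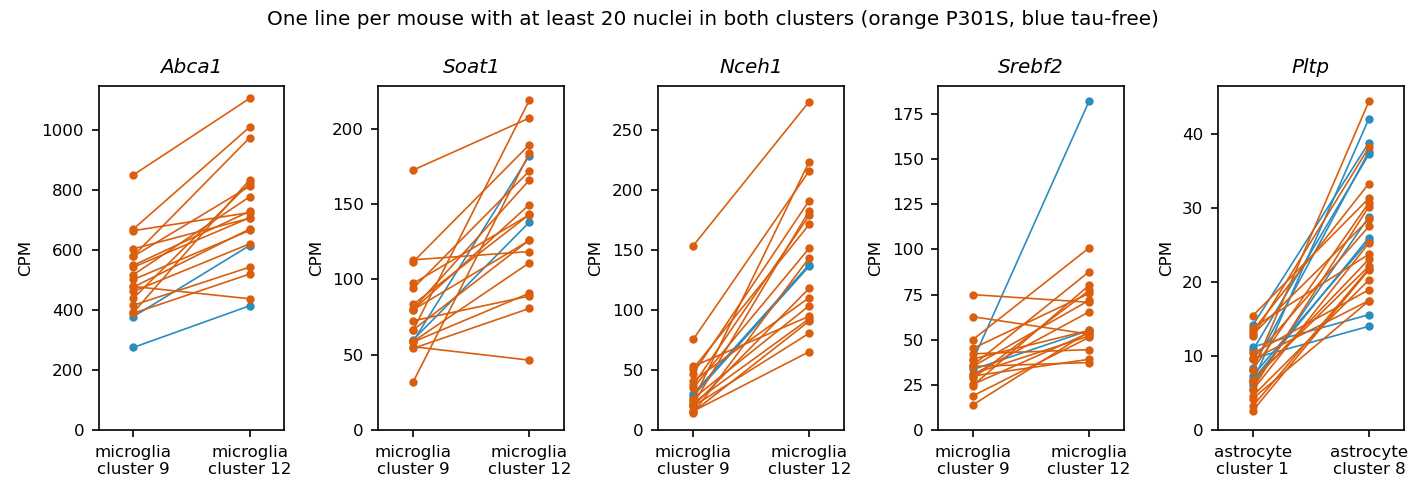
CPM of Abca1, Soat1, Nceh1 and Srebf2 in microglia-like clusters 9 and 12, and of Pltp in astrocyte-like clusters 1 and 8, with 1 line per mouse (orange P301S, blue tau-free). Every line rises for Nceh1 (19 mice) and for Pltp (27 mice).

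P301S mice with high Abca1 in 1 class of glia also had high Abca1 in the others. Over the 18 P301S mice, Abca1 in microglia-like and astrocyte-like nuclei had a Pearson r of 0.855 (permutation p = 1e-05, the smallest that the permutations can give; adjusted over 21 relations 0.000105) and a Spearman rho of 0.792 (permutation p adjusted 0.00158). Without the 2 mice farthest from the median r was 0.832, and within the header versions it was 0.802 (6 mice) and 0.872 (12 mice). Astrocyte- and oligodendrocyte-like nuclei gave r = 0.914 and rho = 0.922 (permutation p adjusted 0.000105 and 0.00021), and microglia- and oligodendrocyte-like nuclei r = 0.725 and rho = 0.707 (adjusted 0.00323 and 0.00643), with r of 0.893 and 0.646 without the 2 farthest mice.

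Other genes did so less uniformly. Nceh1 was related between microglia- and oligodendrocyte-like nuclei (r = 0.749, rho = 0.771, permutation p adjusted 0.00308 and 0.00259, r = 0.665 without the 2 farthest mice), and Srebf2 between astrocyte- and oligodendrocyte-like nuclei (r = 0.674, rho = 0.723, permutation p adjusted 0.00721 and 0.0053, r = 0.638 without the 2 farthest). Abcg1 between microglia- and astrocyte-like nuclei (r = 0.723, rho = 0.686, permutation p adjusted 0.00323 and 0.00781, r = 0.583 without the 2 farthest) did not hold within version 3.0.2, where r was -0.223. Its level in astrocyte-like nuclei of these mice was low, at 0.960 to 9.84 CPM. The remaining 15 of the 21 relations did not pass for r or rho. Relations were computed only for genes described here, without Pltp, so the share of all genes that would pass is not known. Nothing here shows the relations to be particular to these genes. The shares of the glial clusters that were larger in P301S mice also differed between these mice, and their part in the relations was not tested. The classes of a mouse come from 1 library and share its free RNA, whose part in these relations was not tested.

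**Figure D5:**
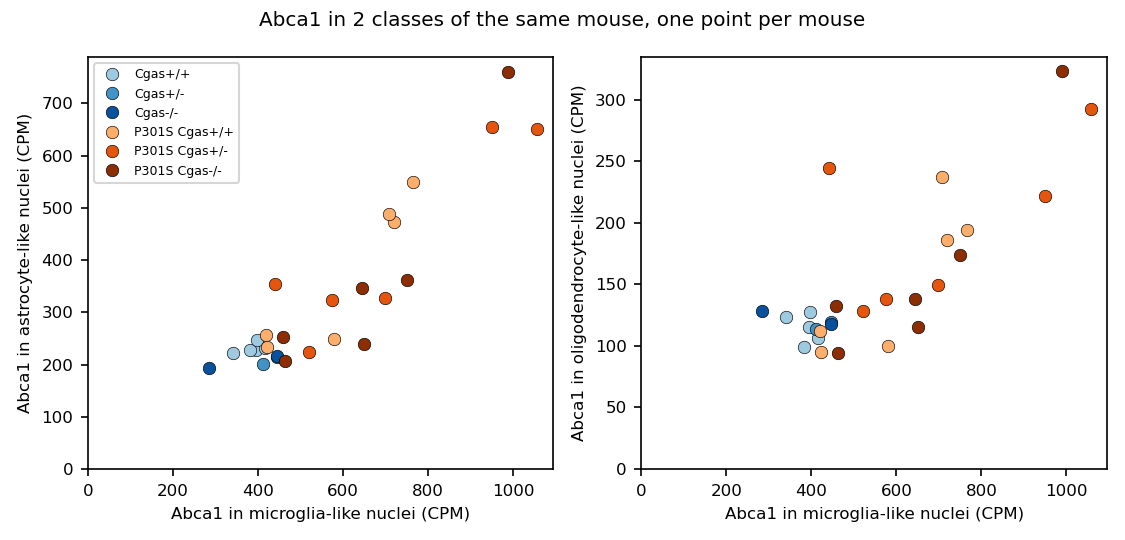
Abca1 CPM in microglia-like nuclei (x axes) against astrocyte-like (left) and oligodendrocyte-like nuclei (right) of the same mouse, with 1 point per mouse colored by group. Over the 18 P301S mice r was 0.855 and 0.725, and the tau-free mice lie together at the low end of the astrocyte panel.

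The wider pathway was read from a list of 84 further genes of lipoproteins, receptors, transport, synthesis, regulation and storage, of which 83 are in the files. In microglia-like nuclei the pooled contrast called 7 of 56 tested genes higher and 1 lower, with a median log2 fold change of 0.01 over the list and -0.00 over all genes. With 11.5% of all genes called in this contrast, the share of the list is near that background and is no result about the list. The 8 calls fell to 1 without Cgas+/- replicate 2, 3 without Cgas-/- replicate 1, 5 without Cgas-/- replicate 2 or P301S Cgas-/- replicate 5, and 0 within header version 3.1.0. The called genes with the smallest p were Npc2 (lysosomal cholesterol export), Soat2 (a sister enzyme of Soat1), Plin2 (a lipid droplet coat), Lpl (lipoprotein lipase), Sorl1 (a sorting receptor) and Lipa (lysosomal cholesteryl ester hydrolase).

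Lpl ran from 0 to 7.93 CPM in tau-free and from 3.15 to 273 CPM in P301S mice (median 52.0), with 16 of 18 above the tau-free range (4.61 ± 1.15, edgeR adjusted p = 0.0141). Npc2 ran from 32.8 to 82.0 CPM and from 57.6 to 133 CPM, with 12 of 18 above (0.84 ± 0.165, edgeR adjusted p = 0.00265). Lipa ran from 14.1 to 36.6 CPM and from 22.0 to 126 CPM, with 14 of 18 above (1.13 ± 0.324, edgeR adjusted p = 0.0255). The groups thus overlapped in part for each. Soat2 (3.14 ± 0.666, edgeR adjusted p = 0.00435) stayed at or below 21.2 CPM in every mouse. Plin2 gave 1.49 ± 0.383 and Sorl1 0.59 ± 0.156 (edgeR adjusted p = 0.0138 and 0.0149). The gene called lower, named after its value was seen, was Cyp7b1, an oxysterol hydroxylase (-0.62, from 19.9 to 45.3 CPM in tau-free and 10.6 to 31.6 CPM in P301S mice). In the tau contrast 0 of 55 tested genes passed, with the smallest p for Soat2 (2.10), Lpl (4.61) and Lipa (1.25).

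In astrocyte-like nuclei 3 of the called pathway genes were of cholesterol synthesis and 1 was a lipoprotein receptor. Whether these few calls exceed the share of all genes called, given next, was not tested. The pooled contrast called 4 of 75 tested pathway genes, all lower: Tm7sf2 (-0.88 ± 0.175), Sc5d (-0.60 ± 0.139) and Dhcr7 (-0.59 ± 0.159) of late sterol synthesis, and Vldlr (-0.57 ± 0.157), a lipoprotein receptor (edgeR adjusted p = 0.0235, 0.0276, 0.0487 and 0.0487), where 2.71% of all genes were called, 289 higher and 84 lower. All 21 tested synthesis genes had negative values, 17 with an unadjusted p under 0.05, where 17.2% of all 13762 genes had one, and their median was -0.55 against 0.01 over all genes. In the tau contrast all 21 were again negative with a median of -0.69, and 0 of 72 pathway genes were called, Tm7sf2 (-1.01), Sc5d (-0.69) and Dhcr7 (-0.69) having the smallest p. In the deletion contrast, which shares the P301S Cgas+/+ mice with the tau contrast, all 21 were positive, with a median of 0.33, 1 at an unadjusted p under 0.05 and 0 called, and in the heterozygous contrast 7 of 21 were positive, with a median of -0.05 and 0 called. The 22 synthesis genes together summed to 826 to 1037 CPM in tau-free mice (median 962) and to 350 to 1011 CPM in P301S mice (median 733).

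Sc5d lay between 35.6 and 43.5 CPM in tau-free mice and between 16.2 and 37.0 CPM in P301S mice, 17 of 18 of which were below the tau-free range. Tm7sf2 lay between 11.6 and 17.6 CPM and between 4.67 and 16.8 CPM, with 16 of 18 below. These 2 were the most separated of the tested synthesis genes. Dhcr7, also called, had 11 of 18 below, and the genes not called had from 0 (Ebp) to 14 (Idi1 and Hmgcs1). The summed level of the synthesis genes was also lower within cluster 1, at a median of 976 CPM in tau-free and 754 CPM in P301S mice, and within cluster 8, at 886 and 567 CPM. Srebf2 itself did not pass (above). The synthesis genes were read in the same mice, and the settings share most of these mice. Agreement of their signs, over genes or settings, is therefore not independent evidence. The calls among the synthesis genes numbered 3 and were 0 without any of the 4 Cgas+/- or Cgas-/- mice, or within either header version, whereas between 19 and 22 of the genes stayed negative under every setting run.

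Oligodendrocyte-like and inhibitory neuron-like nuclei had 0 pathway genes called of 73 and 71 in the pooled contrast (9 and 7 at an unadjusted p under 0.05, as 13.5% and 5.1% of all genes were), and 0 of 71 and 70 in the tau contrast. The smallest p in oligodendrocyte-like nuclei of the tau contrast were those of Plin3 (-0.75), Pparg (-0.93) and Ggps1 (-0.29). Excitatory neuron-like nuclei had 3 called higher and 1 lower of 78, where 2.59% of all genes were called, and of these Soat2 and Abca8a were at or below 6.80 CPM in every mouse and Osbpl1a gave a fitted log2 fold change of 0.68. The groups overlapped for Osbpl1a, at 53.6 to 166 CPM (median 112) in tau-free and 48.3 to 204 CPM (median 127) in P301S mice, with 5 of 18 above the tau-free range and 1 below, and the medians over mice differed by less than the fitted value, which weights the genotype groups equally. These 4 calls fell to 0 with hippocampal-like nuclei only, with P301S as a single factor, within header version 3.1.0 and without Cgas+/- replicate 2 or either Cgas-/- mouse, and to 1 or 2 without each of 9 other mice. Of the 21 synthesis genes tested there, 1 was positive in the tau contrast (median -0.29), 21 in the deletion contrast (median 0.21) and 16 in the pooled contrast (median 0.04), and 0 were called in each. Whether astrocyte-like nuclei differ from other classes in these genes was not tested.

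The genes most like each of the 8 in distribution were taken as those with the highest Pearson correlation of mean log2(CPM + 1) over 15 classes, among 11919 genes. They were Tbccd1 and Smarce1 for Abca1 (0.897 and 0.886), Ppp2r5c and Map3k4 for Abcg1 (0.741 and 0.731), Pid1 and Ninl for Lrp1 (0.881 and 0.842), and Mt3 for Clu (0.949). For Soat1 they were Acss1 and Nox1 (0.860 and 0.813), for Nceh1 Rrp1 and Emb (0.808 and 0.741), for Pltp Luzp1 and Rnf19a (0.893 and 0.875) and for Srebf2 Trps1 and Ptar1 (0.772 and 0.764). The classes share libraries and differ in depth, so these values describe likeness only.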

How the data were processed

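Single nuclei from frozen hippocampi were sorted on DAPI and profiled with the 10x 3′ v3 assay. The values used are the raw UMI counts deposited per library as gene-by-barcode matrices, which the authors made with Cell Ranger by mapping reads to mm10 with intronic reads counted (3.1.0 in the methods; the file headers name 3.0.2 or 3.1.0). The annotation release and strand setting are not given in the sources used here.

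As in the study, barcodes with under 200 or over 4000 genes, or over 5% mitochondrial UMIs, were left out. Doublets were scored per library with simulated doublets and the highest scores removed, at 0.8% per 1000 nuclei (16429 removed). Clustering used scanpy 1.11.5 with 2000 variable genes, 30 components, 15 neighbors and Leiden resolution 1, without the 8 genes and the pathway list, and gave 52 clusters. Clusters were named from fixed markers. The naming thresholds were set after the cluster markers were seen and before any comparison, and 14916 nuclei stayed unnamed.

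UMIs were summed per mouse and class and tested with edgeR 4.0.16 in R 4.3.3 (quasi-likelihood, TMM, filterByExpr, robust, sex as covariate), with p-values adjusted by the Benjamini-Hochberg method over all genes of a class and contrast and called under 0.05. The tau, deletion and heterozygous contrasts were fitted on the 4 groups with 5 or 6 mice, and the pooled tau contrast on all 6. On simulated counts the script was tested before use. Genes named in each class were those fixed by rule: each gene in the 2 tested classes with its highest mean, any gene called, and pathway genes called or of smallest p, at most 6 per class. Other fold changes were added after their values were seen, and a few genes that the rule names are not reported here. The genes, lists and tests were chosen with earlier results of these data known. DESeq2 1.42.0 and other settings were run as alternatives.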

Additional observations from a re-analysis of the deposited data

Results flagged for a closer look

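In 6 of 160 combinations of gene, class and group with 5 or 6 mice, 1 library lay far from the others, a count to set beside the 1 in 20 that chance alone flags. Abcg1 in oligodendrocyte-like nuclei stood at 194.696 CPM in Cgas+/+ replicate 3, against 152 to 163 CPM in the others. Abcg1 in excitatory neuron-like nuclei was 35.5621 CPM in Cgas+/+ replicate 1 and 41.2 to 43.6 CPM in the others. Clu in inhibitory neuron-like nuclei was 14.4393 CPM in P301S Cgas+/- replicate 1 and 23.8 to 30.5 CPM in the others. Soat1 in astrocyte-like nuclei was 202.337 CPM in P301S Cgas-/- replicate 6 and 171 to 177 CPM in the others. Nceh1 in astrocyte-like nuclei was 11.1731 CPM in P301S Cgas-/- replicate 3 and 18.3 to 24.3 CPM in the others. Pltp in oligodendrocyte-like nuclei was 3.25536 CPM in P301S Cgas+/+ replicate 5 and 1.31 to 1.84 CPM in the others, a level of few UMIs.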

How the results depend on the processing

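No paired analysis was possible because the labels give the mice no replicate numbers, and those used here follow accession order and tie no mouse to another. The header version, and the lists under all settings, were added after seeing the data. DESeq2 called 2 of the 8 genes in the tau contrast of microglia-like nuclei (Soat1 and Nceh1), where 1.1% of genes were called, and fitting without a low-count filter called 3, where 3.75% were, while leaving out 1 mouse gave 0 to 2, where 0% to 4.25% were. The pooled contrast of this class gave 0 within header version 3.1.0 and 1 to 4 without each mouse, where 2.5% to 14.3% of genes were called. In astrocyte-like nuclei it gave 1 (Abca1) with DESeq2, with P301S as a single factor and within version 3.0.2, where 2.83%, 5.13% and 1.36% were called, and 0 to 1 without each mouse, where 0.00700% to 5.66% were. Every other setting left the counts of these 3 and of the other 17 class and contrast pairs within 1.5 times. Leaving out a mouse of a 2-mouse group assumes that the lone mouse varies like the other groups. The shares of genes called by DESeq2 and without the low-count filter are over all genes with any UMI in the class. They are therefore not on the same base as the shares of the filtered fits.

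Pathway calls in microglia-like nuclei (8) became 15 without the filter, 3 within version 3.0.2 and 0 within 3.1.0, and 1 to 11 without each mouse, with 5 without P301S Cgas-/- replicate 5 or Cgas-/- replicate 2, 3 without Cgas-/- replicate 1 and 1 without Cgas+/- replicate 2. In astrocyte-like nuclei (4) they became 7 with DESeq2, 2 without the filter or with 2 times the doublet rate, 1 with the header version as covariate and 0 within either version, and 0 to 6 without each mouse (0 without any of the 4 Cgas+/- or Cgas-/- mice). In excitatory neuron-like nuclei (4) they became 7 with DESeq2, 2 without the filter or with the header version, 0 with hippocampal-like nuclei only, with a single factor or within version 3.1.0, and 0 to 5 without each mouse. Calls among astrocyte synthesis genes (3) became 1 with the header version as covariate, 0 within either version and 0 to 4 without each mouse.

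Fold changes near 0 changed sign, none of them called. Without the sex covariate the deletion contrast gave 0.0154 for Abcg1, 0.0468 for Soat1 and 0.00039 for Nceh1 in microglia-like nuclei and 0.0448 for Pltp in astrocyte-like nuclei. Abcg1 in microglia-like nuclei gave 0.000164 with all 27 mice and 0.00268 with the 2 groups alone, and in oligodendrocyte-like nuclei -0.00289 with 2 times the doublet rate. Clu in astrocyte-like nuclei gave -0.00348 (header version as covariate) and -0.0119 (the 2 groups alone) in the tau contrast. In the pooled contrast Lrp1 in microglia-like nuclei gave 0.0452 within version 3.1.0, and Soat1 in astrocyte-like nuclei gave 0.0022 (no filter), 0.0341 (no sex covariate), 0.000653 (doublet rate), 0.0014 (at least 1000 UMIs), 0.0122 (header version), 0.0024 (single factor) and 0.0719 (version 3.1.0). Without each mouse, the deletion contrast in microglia-like nuclei ran from -0.0531 to 0.188 for Abca1, -0.256 to 0.138 for Abcg1, -0.0720 to 0.136 for Lrp1, -0.186 to 0.220 for Soat1 and -0.514 to 0.208 for Nceh1. In astrocyte-like nuclei it ran from -0.385 to 0.0603 for Abca1, -0.011 to 0.0842 for Soat1 and -0.195 to 0.115 for Pltp, and in the tau contrast from -0.100 to 0.0125 for Lrp1 and -0.134 to 0.172 for Clu. Pooled values ran from -0.0954 to 0.0563 for Lrp1 in microglia-like and -0.0295 to 0.0299 for Soat1 in astrocyte-like nuclei. Abcg1 in oligodendrocyte-like nuclei ran from -0.00881 to 0.102 (tau) and -0.110 to 0.0875 (deletion), and in inhibitory neuron-like nuclei Clu ran from -0.114 to 0.0597 (tau) and Nceh1 from -0.000396 to 0.143 (deletion). The causes of these changes were not tested. The log2 fold changes of Abca1, Soat1 and Nceh1 in microglia-like nuclei kept their sign in every setting of the tau and pooled contrasts. Mean levels kept within 1 SD in all 24 alternatives. Pltp had too few UMIs for the main test in microglia- and oligodendrocyte-like nuclei, at means of 4.20 and 1.42 CPM.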
